A study of Mus musculus with 3 samples.

Results

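Multi-Lin cells, 1 of the clusters that the authors named among mouse bone marrow progenitors, were divided by the amount of the receptor CD117 on their surface. The cluster held 1752 of the 11132 cells in the series, 686 of them female and 1066 male. Within each library the cells were ranked by their CD117 antibody count and cut into 4 classes of 25% each, and the top and bottom class were compared: 171 against 171 female cells and 266 against 266 male cells. The groups were thus chosen by the antibody count and not by transcripts, so differences in CD117 are given as a description and differences in transcripts were tested.

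CD117 is the protein made from Kit, a receptor tyrosine kinase that binds stem cell factor. It is carried by blood stem and progenitor cells and is lost from most lineages as they mature, while mast cells keep it. Signals from the receptor run through PI3 kinase, the Ras and MAP kinase cascade and STAT proteins, and CBL ubiquitin ligases remove the activated receptor from the surface.

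All cells came from wild-type C57BL/6 mice, and no treatment is given in the labels. Marrow was enriched with beads against CD117 before staining and sorting of what the submitters call modified GMP, so every cell had already passed a selection on the protein used here to split them. The 1 male and the 1 female mRNA library had 689 M and 676 M reads, and 1 antibody library pooled both sexes and counted CD117, CD11b, Ly-6C and Ly-6G in the same cells as the transcripts (CITE-seq). The number of mice in a library is not stated in the labels. With the library as a covariate, p-values rest on counting error and on how the class difference varied between these 2 libraries, pooled over genes. They do not measure a spread between mice.

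By its transcripts the cluster lay between an earlier and a granulocytic one. Transcripts of 32 genes of multipotent progenitors summed to 3693 CPM (UMIs per M UMIs of all genes) in female and 3754 in male Multi-Lin cells, against 6888 and 7369 in HSCP-2 and 1341 and 1233 in Gran-1. Mpo, the myeloperoxidase of primary granules, was at 4380 and 4858 CPM, against 1068 and 1041 in HSCP-2 and 8916 and 9562 in Gran-1. Its level of 18 primary granule genes together, 18370 and 19870 CPM, also fell between those of the other two. The basophil, mast cell and eosinophil list was at 4182 and 5092 CPM, above its 1783 and 1750 in HSCP-2 and 2936 and 3048 in Gran-1. Multi-Lin cells held 4448 to 48636 RNA UMIs each. In the whole series 45 cell barcodes occurred in both libraries, and 11 Multi-Lin cells (8 female, 3 male) carried one of them.

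The split by CD117 was also a split by depth. Median CD117 counts over the 4 classes, from the lowest, were 163, 297, 409 and 643 in the female library and 85, 168, 250 and 389.5 in the male library. The bottom class ended at 233 female and 131 male counts, and the next cells had 234 and 131. The top class began at 484 and 306, and the cells just outside it had 483 and 305. The median RNA depth rose from 13992 UMIs in the bottom to 18362 in the top female class, a ratio of 1.31, and from 9843 to 15720 in the male library, a ratio of 1.60. The summed count of the other 3 antibodies was 1.17 and 1.52 times as high. Of these, CD11b was 1.29 and 1.94 times, Ly-6C 1.15 and 1.30 times, and Ly-6G 1.30 and 2.13 times as high in the top class. With each cell thinned to 5000 UMIs, the number of detected genes differed by 1.04 and 1.03 times only. Across cells, the Spearman correlation of the CD117 count with RNA depth was 0.260 (686 female cells) and 0.390 (1066 male cells), and with the other 3 antibodies 0.209 and 0.401. These points share a library and, per cell, a droplet. Because both measures moved with CD117, the results below are given beside splits matched on them.

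**Figure D1:**
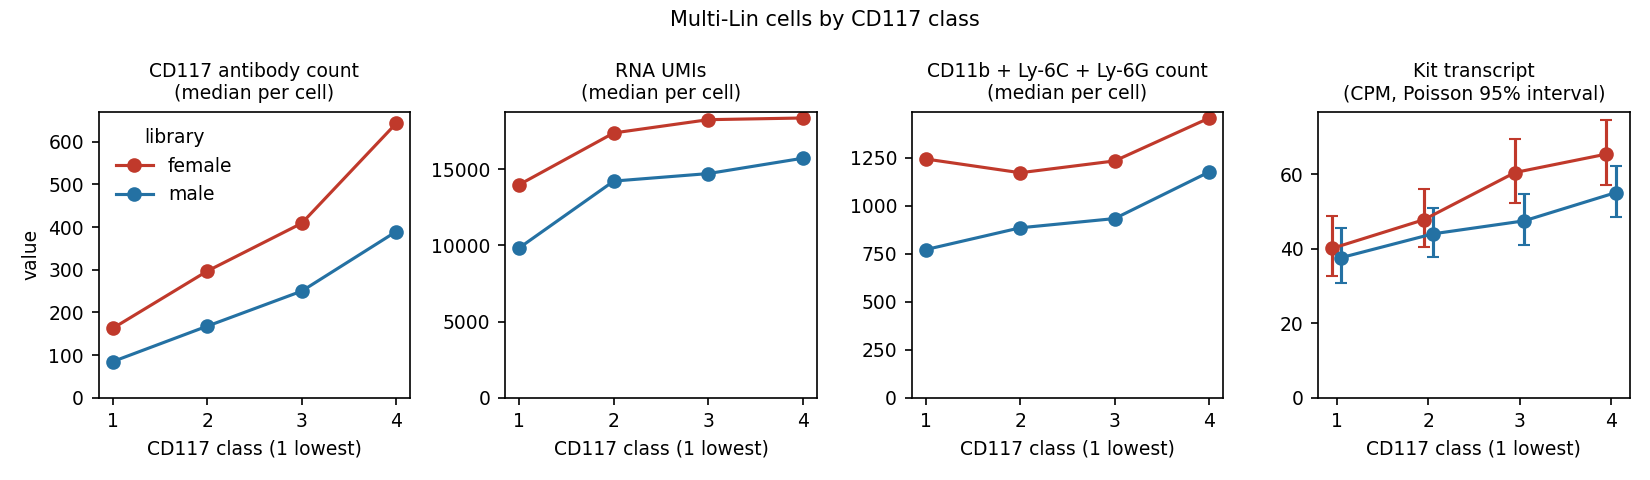
Median CD117 antibody count, RNA UMIs and summed count of the other 3 antibodies per cell, and Kit transcript level (CPM with exact Poisson 95% interval, counting error only), in the 4 CD117 classes of female (red) and male (blue) Multi-Lin cells. RNA depth rises most from the first to the second class, and Kit rises in each step in both libraries, from 40.1 to 65.4 CPM and from 37.6 to 55.1 CPM.

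Kit RNA, on chromosome 5 (75574987 to 75656722, GRCm38.p6), followed the protein. Kit was at 40.1, 47.8, 60.5 and 65.4 CPM in the female classes from low to high CD117, and at 37.6, 44.0, 47.5 and 55.1 CPM in the male classes. The top class lay above the bottom one in each library, and both top values lay above both bottom values. The exact Poisson 95% intervals of the bottom and top class did not overlap, with 32.6 to 48.8 against 57.1 to 74.7 CPM in the female and 30.9 to 45.5 against 48.5 to 62.3 CPM in the male library, counting error only. Kit differed by a log2 fold change of 0.53 (SE 0.13, a 1.45-fold rise; edgeR adjusted p = 0.00051). A 3.95-fold (female) and 4.58-fold (male) difference in median protein count thus went with a much smaller one in the transcript. With DESeq2 on the same sums the call was lost (adjusted p = 0.71 for a log2 fold change of 0.53), and in cells thinned to 5000 UMIs it was too (0.47, edgeR adjusted p = 0.11).

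The share of cells with at least 1 Kit UMI was 42.7% in the bottom and 73.7% in the top female class, and 30.5% and 57.9% in the male library. After thinning the shares were 22.8% and 31.6%, and 17.9% and 27.2%. In Myelo-3, a cluster with low CD117, the unthinned shares were 11.7% at a median depth of 9531 UMIs and 15.3% at 8770 UMIs, and the thinned ones 4.76% and 7.99%, so Kit in the lowest class was above that level. Over cells, the Spearman correlation of the CD117 count with Kit UMIs was 0.275 for female and 0.228 for male cells, close to that of Kit UMIs with RNA depth (0.234 and 0.247). For reference, HSCP-2 held 96.0 and 89.1 CPM of Kit and Gran-1 37.6 and 32.9 CPM.

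Transcripts of the other antibody targets gave no call between the classes set by CD117 count. Values of the bottom and top class alone are from here on CPM scaled by the TMM factors of edgeR (0.961 to 1.04), given as female bottom, female top, male bottom and male top. Ly6c2, which encodes a form of Ly-6C, was at 248, 216, 208 and 235 CPM, with the libraries moving in opposite directions (log2 fold change -0.0019, edgeR adjusted p = 0.99). In matched splits Ly6c2 was lower in the CD117-high cells, by -0.28 within bins of the other 3 antibodies (edgeR adjusted p = 0.00011) and by -0.36 by the residual of CD117 on RNA depth and the other antibodies (edgeR adjusted p = 1.12e-05), while within bins of RNA depth alone -0.13 did not pass (edgeR adjusted p = 0.23). Itgam, which encodes CD11b, was at 4.12, 8.33, 1.84 and 2.33 CPM (0.80, edgeR adjusted p = 0.25). Ly6g was at 4.12, 4.31, 2.21 and 3.39 CPM (0.31, edgeR adjusted p = 0.75). The antibody counts of all 3 targets were higher in the top class, as given above.

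Flt3, the receptor of the Kit family that marks multipotent and lymphoid-primed progenitors, was at 13.2, 28.2, 3.68 and 18.5 CPM. Flt3 was higher in the top class of each library, and both top values exceeded both bottom ones, with a 2.84-fold rise (log2 1.505, SE 0.23, edgeR adjusted p = 1.67e-09). As for Kit, the Flt3 call was lost with DESeq2 (log2 1.64, adjusted p = 0.063). Csf1r, the receptor for macrophage colony-stimulating factor in the same family, did not pass, at 6.60, 7.76, 4.41 and 8.06 CPM (log2 0.55, edgeR adjusted p = 0.29). The fourth family member tested, Pdgfrb, did not pass either (log2 0.46, edgeR adjusted p = 0.21).

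Of all 9460 genes tested, 1556 passed an edgeR adjusted p of 0.05, which is 16.4% of them. In the top class 619 genes were higher (6.54%) and 937 lower (9.9%). Counts for any group of genes below are read against these shares. Where top and bottom values of a gene are said not to overlap, 2 values stand against 2. The share of all tested genes separated in that way is not given, so such statements describe the gene only. The median log2 fold change of all tested genes was 0.0063. DESeq2 called 263 genes (2.78%), 50 higher (0.529%) and 213 lower (2.25%). The edgeR fit had 1 residual degree of freedom and set 1 common spread for all genes (a coefficient of variation of 3.06%), so an adjusted p here reflects that shared spread rather than the gene's own.

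**Figure D2:**
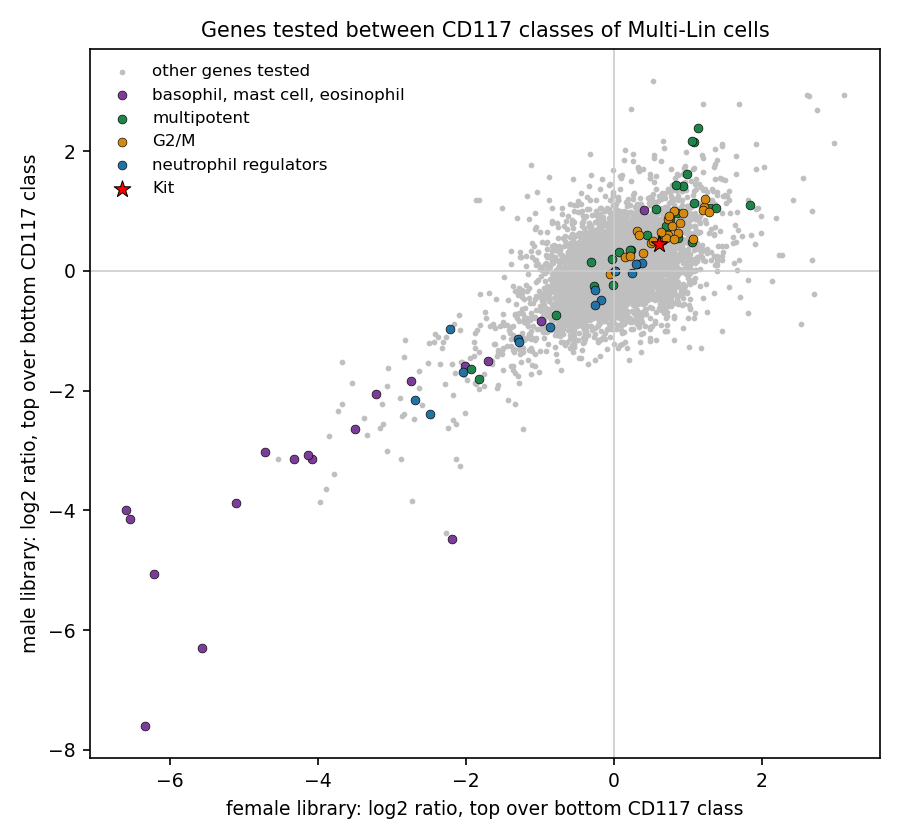
Log2 ratio of the top over the bottom CD117 class for each tested gene in the female (x axis) and the male library (y axis), with members of 4 gene lists and Kit marked. Most basophil, mast cell and eosinophil genes extend far to the lower left in both libraries, and most multipotent and G2/M genes lie to the upper right.

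Genes of basophils, mast cells and eosinophils made up the strongest difference, and they were high where CD117 was low. Of 27 genes on this list 19 could be tested, 17 were lower in the top class, and the median log2 fold change was -3.46. Mcpt8, a basophil protease, was at 3514, 223, 87.5 and 107 CPM over the 4 female classes and at 4167, 200, 140 and 301 CPM over the male ones. The bottom class was high in both libraries and the other 3 were low, with no overlap. Mcpt8 was 20.6-fold lower in the top class (log2 -4.37, SE 0.037, past the edgeR threshold).

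Prss34, another basophil protease, was at 3278, 43.4, 4541 and 135 CPM and was 44.0-fold lower (log2 -5.46, SE 0.041). Cpa3, carboxypeptidase A of mast cells and basophils, was at 1008, 150, 1446 and 403 CPM and was 4.61-fold lower (log2 -2.21, SE 0.045). In both genes the 2 bottom classes lay above both top ones. The chains of the high-affinity IgE receptor fell as well. Ms4a2, its beta chain, was at 421, 79.1, 28.6 and 16.4 CPM over the female and 420, 101, 55.1 and 54.6 CPM over the male classes (log2 -3.58, SE 0.079), falling at each step in both. Fcer1a, its alpha chain, was at 148, 0.862, 82.3 and 4.67 CPM (log2 -5.16, SE 0.19), with 3 UMIs in the female top class. Hdc, which makes histamine, was at 279, 68.7, 280 and 93.1 CPM (log2 -1.77, SE 0.074). Genes for eosinophil granule proteins went the same way, Prg2 from 937 to 10.9 and from 1786 to 8.70 CPM, and Epx from 44.95 to 0.287 and from 74.98 to 0.424 CPM. Srgn, the proteoglycan core of granules in many myeloid cells, changed least among the 17 (log2 -0.91, SE 0.032). The 1 list gene that rose was Ccl4, a chemokine of many activated leukocytes (52.4, 69.8, 24.3 and 49.8 CPM, log2 0.67, SE 0.13).

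The promoters of 4 of these genes are printed because each holds the letters AGATAA on either strand, a form of the sequence that GATA factors recognise. Gata2 transcripts were also lower in the top class, and whether GATA2 acts on these genes was not tested. The stretches are the 250 bases before an annotated start, from RefSeq on GRCm38.p6. Each is written 5′ to 3′ on the strand of the gene, with AGATAA or its other-strand form TTATCT in capitals. Prss34 lies at chr17:25298144-25298393 on the plus strand, and Cpa3 at chr3:20242182-20242431, Ms4a2 at chr19:11623720-11623969 and Fcer1a at chr1:173227230-173227479 on the minus strand.
Prss34: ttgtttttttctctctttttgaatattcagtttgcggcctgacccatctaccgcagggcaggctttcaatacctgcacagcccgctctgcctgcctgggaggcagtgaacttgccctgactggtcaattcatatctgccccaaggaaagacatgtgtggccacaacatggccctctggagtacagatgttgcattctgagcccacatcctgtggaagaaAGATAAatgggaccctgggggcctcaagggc
Cpa3: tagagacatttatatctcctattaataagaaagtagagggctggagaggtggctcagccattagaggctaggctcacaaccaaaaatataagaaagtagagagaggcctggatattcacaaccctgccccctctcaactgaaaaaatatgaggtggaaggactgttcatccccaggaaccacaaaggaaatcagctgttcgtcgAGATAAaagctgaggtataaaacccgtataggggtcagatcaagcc
Ms4a2: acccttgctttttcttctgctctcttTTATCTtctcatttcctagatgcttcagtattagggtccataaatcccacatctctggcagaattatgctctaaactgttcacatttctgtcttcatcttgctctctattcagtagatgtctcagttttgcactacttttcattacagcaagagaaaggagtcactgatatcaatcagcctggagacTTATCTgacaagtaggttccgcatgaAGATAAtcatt
Fcer1a: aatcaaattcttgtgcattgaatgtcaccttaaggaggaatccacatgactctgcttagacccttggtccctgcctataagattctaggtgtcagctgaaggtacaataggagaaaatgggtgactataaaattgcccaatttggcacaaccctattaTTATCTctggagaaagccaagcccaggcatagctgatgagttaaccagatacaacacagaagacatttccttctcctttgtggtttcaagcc
Counted from the start used for each window, the letters begin 31 bases before it in Prss34, 46 in Cpa3, 92 in Fcer1a, and 224, 37 and 11 in Ms4a2. The annotated gene spans reach past that start, to 20242209 in Cpa3, 11623790 in Ms4a2 and 173227232 in Fcer1a. The copies at 37 and 11 bases in Ms4a2 thus lie inside its gene span. On either strand the letters occurred in 7 of 27 promoters of the list (25.9%) and in 3281 of all 32851 promoters (9.99%). They occurred in 4 of 43 of the multipotent list (9.3%) and in 2 of 21 of the G2/M list (9.52%). The Mcpt8 window, at chr14:56085198-56085447 on the minus strand, had 0 copies. It lies wholly inside the annotated span of Mcpt8, which ends at 56085499, and sequence past that end was not searched. All these counts and positions are matches of letters and not measured binding.

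Few cells carried most of the Mcpt8, Prss34 and Prg2 transcripts. The 10% of cells with the highest summed level of Mcpt8, Prss34, Ms4a2 and Cpa3, called basophil-rich below, were 68 female and 106 male cells, of which 59 and 80 lay in the bottom CD117 class, 34.5% and 30.1% of that class. Their median CD117 count was 137 for the female and 71.0 for the male cells, against 379 and 220 in the remaining cells. They held 90.2% and 88.9% of the Mcpt8 UMIs and 97.7% and 97.9% of those of Prss34, but only 39.1% and 31.3% of Cpa3 and 51.9% and 43.4% of Ms4a2. Their median RNA depth was 11226.5 and 9959 UMIs, below the 17585 and 14120 of the rest, and their other 3 antibodies were at 1320.5 and 926 counts, close to the 1269.5 and 918.5 of the rest. Prg2 came from fewer cells still. Cells with 10 or more Prg2 UMIs numbered 11 among female and 21 among male cells, of which 10 and 15 were in the bottom class. They held 94.2% and 97.8% of all Prg2 UMIs, the transcript that picked them. No doublet caller was run, and whether any of these cells were doublets was not tested.

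The basophil and mast cell genes were still lower in the CD117-high cells once those cells were left out. Without the basophil-rich cells, with classes set again, 835 of 9334 genes passed in edgeR (8.95%), 498 of them lower (5.34%), and 16 of 18 tested list genes were lower with a median log2 fold change of -2.48. Mcpt8 then differed by -0.92, Cpa3 by -1.14, Hdc by -1.44, Ms4a2 by -2.78 and Fcer1a by -3.54 on the log2 scale. Without the Prg2-rich cells too, 13 of 16 list genes were lower (median -1.27) and 646 genes passed in all (6.94%, with 2.81% higher and 4.13% lower). Prg2 itself then gave 0.22 on the log2 scale and no call, which the choice of these cells by their Prg2 UMIs largely set in advance. Matching RNA depth did not end the difference in the list either. When classes were set within 10 bins of RNA depth, 1068 of 9617 genes passed (11.1%), 632 of them lower (6.57%), and all 17 genes of this list were again lower (median -2.38). The same 17 were lower with classes set by the residual of CD117 on RNA depth and the other antibodies (median -2.68), a split in which 15.5% of all genes passed and 8.93% were lower.

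Transcription factors and receptors of the basophil and mast cell lineage fell with the granule genes. Gata2, which mast cells and basophils need and which is also a stem cell factor, was at 259, 92.3, 71.4 and 72.0 CPM over the female classes and at 264, 93.8, 82.3 and 90.0 CPM over the male ones. Its bottom classes were high and did not overlap the others (log2 -1.77, SE 0.074, edgeR adjusted p = 1.03e-118). Gata2 still differed by -1.24 without the basophil-rich cells and by -1.02 within bins of RNA depth. Gata1, shared by erythroid, megakaryocyte, mast cell and eosinophil development, was at 36.3, 11.2, 37.1 and 19.9 CPM (log2 -1.20, SE 0.17, edgeR adjusted p = 1.31e-10). Lmo4, a LIM-domain regulator listed with the neutrophil regulators, was at 806, 306, 154 and 132 CPM in the female and 931, 304, 215 and 223 CPM in the male classes, a 5.22-fold fall from bottom to top (log2 -2.38, SE 0.051). Without the basophil-rich cells Lmo4 differed by -2.04.

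Of 17 cytokine receptors tested, 4 were higher and 6 lower in the CD117-high cells. The lower ones included the receptor for interleukin 3, the main growth factor of basophils. Il3ra, its alpha chain, was at 89.1, 49.1, 81.6 and 40.7 CPM (log2 -0.93, SE 0.11), and Csf2rb, the shared beta chain, at 56.1, 25.9, 44.8 and 23.3 CPM (log2 -1.03, SE 0.15). Ifngr1, a chain of the interferon gamma receptor, was at 137, 90.2, 167 and 94.4 CPM (log2 -0.73, SE 0.082). Bottom and top values did not overlap in any of the 3. Csf3r, the receptor for granulocyte colony-stimulating factor, rose from 14.4 to 38.2 and from 17.3 to 38.0 CPM (log2 1.25, SE 0.18). Tnfrsf1a, a receptor for tumour necrosis factor, rose from 37.5 to 62.1 and from 34.2 to 52.0 CPM (log2 0.66, SE 0.13). Within bins of RNA depth Il3ra (-0.65), Csf2rb (-0.67), Ifngr1 (-0.45) and Csf3r (0.82) were called again. Tnfrsf1a was not (0.26, edgeR adjusted p = 0.16), and its call was also lost with DESeq2, by the residual and without the basophil-rich cells.

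Among 34 tested genes of the signalling chain below the receptor, 5 passed, a share near that of all genes. Stat3 (log2 0.45) and Plcg2 (0.49) were higher, and Jak2 (-0.93), Sos2 (-0.81) and Rac2 (-0.36) lower, and the list median was -0.0019. Within bins of RNA depth 5 were higher and 1 lower, and without the basophil-rich cells described below 0 were higher and 1, Rac2, was lower. Of 13 negative regulators, the adaptor Dok2 (-0.54) and the Ras pathway inhibitor Spry2 (-1.38) were lower. Neither passed with DESeq2 or within bins of RNA depth. The CBL ligases gave no call. Of 14 tested transcription factors known to act on Kit, 5 were higher and 4 lower. The higher ones included Lmo2 (log2 1.11) and Lyl1 (0.49), partners in blood stem cell complexes, and the lower ones were Gata2, Gata1, Runx1 (-0.77) and Myb (-0.25).

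Most genes of multipotent progenitors were higher in the CD117-high cells, but their summed level differed little. The sum of the list was at 3689, 3394, 3730 and 3933 CPM over the female classes. Over the male ones it was at 3903, 3274, 3891 and 3951 CPM. Of 32 on the list 31 were tested, 20 were higher and 4 lower, and the median log2 fold change was 0.72. Cd34, a surface sialomucin of progenitors, was at 189, 278, 341 and 329 CPM over the female classes and at 159, 251, 312 and 287 CPM over the male ones. Its level climbed over the first 3 classes and was lower again in the top one, in both libraries (top against bottom log2 0.73, SE 0.064, edgeR adjusted p = 7.86e-28). Lmo2, a bridging factor of stem cell transcription complexes, was at 210, 371, 417 and 473 CPM and at 186, 365, 424 and 437 CPM, rising at each step (log2 1.11, SE 0.058, edgeR adjusted p = 6.80e-77). Ctla2a, a protease inhibitor found in early progenitors, was at 154, 190, 256 and 313 CPM and at 125, 182, 291 and 356 CPM (log2 1.18, SE 0.066, edgeR adjusted p = 5.91e-68). In all 3 genes both top classes lay above both bottom ones.

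Rare stem cell transcripts moved in the same direction. Hlf, a stem cell transcription factor, was at 6.19, 23.9, 6.62 and 14.8 CPM (log2 1.56, SE 0.25), Mecom, another, at 3.30, 8.05, 1.47 and 9.97 CPM (1.95, SE 0.40), and Ly6a, which encodes Sca-1, at 2.89, 6.90, 2.21 and 11.7 CPM (1.88, SE 0.39). DESeq2 called none of these 3, with adjusted p of 0.15, 0.41 and 0.48. The 4 genes that fell were Gata2, Ifitm1, Runx1 and Myb. Ifitm1, an interferon-inducible membrane protein, was at 1024, 290, 1387 and 395 CPM (log2 -1.81, SE 0.043), while its neighbour in family and list Ifitm3 rose, at 215, 355, 209 and 345 CPM (0.72, SE 0.060).

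The 20 higher multipotent genes were all called again within bins of RNA depth, where 4.53% of all genes were higher, within bins of the other 3 antibodies (6.08%) and by the residual (6.55%). Of the 20, 19 were called again without the basophil-rich cells (3.61% of all genes higher), with a list median of 0.49. In thinned cells 14 of the 20 were called again (4.44%), and 8 with DESeq2.

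**Figure D3:**
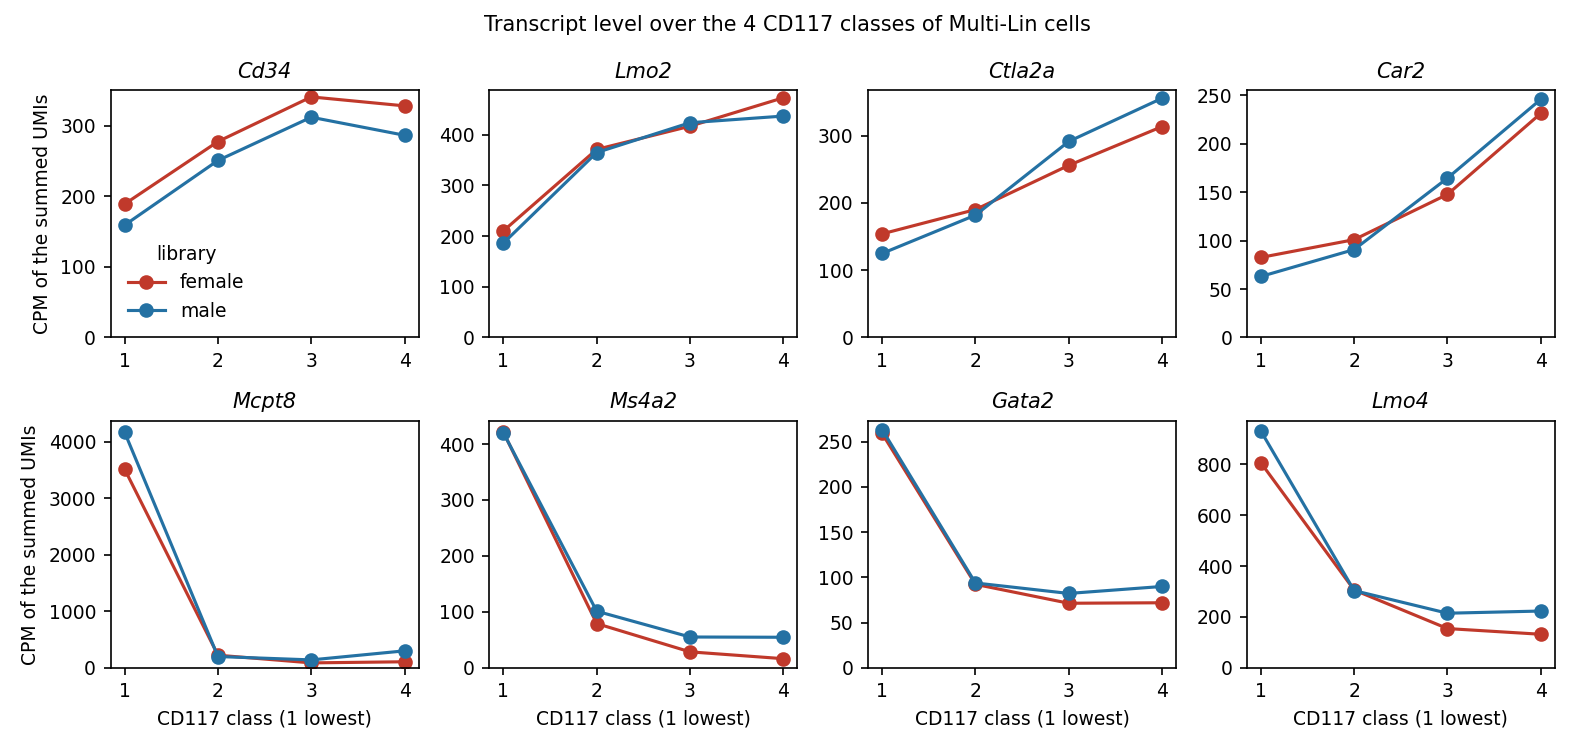
Level (CPM of the summed UMIs, linear axes from 0) of 8 genes over the 4 CD117 classes in female (red) and male (blue) Multi-Lin cells. Lmo2, Ctla2a and Car2 climb over all 4 classes, Cd34 over the first 3, and Mcpt8, Ms4a2, Gata2 and Lmo4 drop mainly between the first and the second class.

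Among genes of other lineages, Car2, a carbonic anhydrase of erythroid and early progenitor cells, was at 82.6, 101, 148 and 231 CPM over the female and 63.0, 90.8, 165 and 246 CPM over the male classes. Car2 rose at each step in both libraries (log2 1.64, SE 0.081, edgeR adjusted p = 2.22e-86) and still rose within bins of RNA depth (1.84). Of 8 erythroid genes tested, Car2, Car1 (0.90) and the globin Hbb-bt (2.20) were higher, and Gata1, Klf1 (-1.18), Apoe (-1.14) and Blvrb (-0.90) were lower. Klf1, the master regulator of erythroid genes, and Gata1 thus moved against Car2 and the globin. Car1 rested on the female library (4.12 to 21.8 CPM, against 18.7 to 22.7 CPM in the male). By the residual, Car1 rose by 2.16 on the log2 scale, while Klf1 (-0.36) and Blvrb (-0.26) gave no call.

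Of 14 megakaryocyte genes tested, 9 were higher and 3 lower, with a median of 0.998 on the log2 scale. Nrgn, a calmodulin-binding protein made in platelets, was at 37.5, 87.1, 24.99 and 79.7 CPM (log2 1.43, SE 0.13, edgeR adjusted p = 1.87e-27). Pf4, platelet factor 4, was at 10.3, 85.6, 8.09 and 37.3 CPM (2.71, SE 0.19), but 1 cell held at least 50% of its UMIs in the female top class and 3 cells did so in the male one. Cd9 (-1.34), Itga2b (-1.001) and Gp9 (-0.71), surface proteins of platelets, were lower. Gp9 was called again without the basophil-rich cells (-0.79). It was not called with DESeq2, within bins of RNA depth (-0.14, edgeR adjusted p = 0.81), by the residual or in thinned cells. In thinned cells 3 of the 9 higher genes were called again, and with DESeq2 2 were.

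Regulators of granulocyte fate were lower in the CD117-high cells. Of 14 tested, 8 were lower and 0 higher, with a median of -0.66 on the log2 scale. Cebpe, which drives the later steps of granulocyte maturation, was at 155, 195, 107 and 67.2 CPM over the female and 188, 185, 111 and 87.6 CPM over the male classes. It was high in both lower classes and fell in each of the upper ones (log2 -1.24, SE 0.083, edgeR adjusted p = 6.86e-48), and without the basophil-rich cells the difference was -1.46. Few cells carried it, since 13 female and 18 male cells held at least 50% of the Cebpe UMIs in the bottom class, and 19 and 20 in the top one. The share of cells with a Cebpe UMI, at unmatched depth, did not fall. It was 49.7% in the bottom and 55.6% in the top female class, and 42.9% and 47.0% in the male library. Cebpa, needed for the first myeloid step, was at 241, 132, 210 and 109 CPM (-0.90, SE 0.072), and Cebpb at 164, 66.7, 162 and 73.2 CPM (-1.21, SE 0.086). Gfi1, the repressor that favours neutrophils, did not pass at 17.7, 23.3, 20.6 and 22.5 CPM (0.24, edgeR adjusted p = 0.44). Irf8, which favours monocytes, rose from 37.5 to 75.01 and from 30.9 to 58.7 CPM (0.96, SE 0.13, edgeR adjusted p = 7.73e-12). Within bins of RNA depth that rise was 0.21 and gave no call (edgeR adjusted p = 0.26).

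Of 16 primary granule genes tested, 11 were lower and 3 higher, with a median of -0.38. Plac8, a myeloid progenitor gene, fell at each step, at 5852, 4737, 3917 and 3471 CPM in the female and 6509, 5142, 4267 and 3858 CPM in the male classes (log2 -0.85, SE 0.023). Mpo was at 4232, 3796, 5255 and 4000 CPM (-0.28, SE 0.024), Elane, neutrophil elastase, at 1722, 1563, 2077 and 1755 CPM (-0.19, SE 0.031) and Ctsg, cathepsin G, at 2240, 1599, 2621 and 1684 CPM (-0.56, SE 0.030). For Elane the groups overlapped across libraries, since the male top value exceeded the female bottom one. DESeq2 called neither Mpo (adjusted p = 0.59) nor Elane (adjusted p = 0.099), while it called Plac8 and Ctsg. With classes set within bins of RNA depth the falls were larger for Mpo (-0.58) and Elane (-0.59). The 3 higher genes were Prtn3 (0.33), Serpinb1a (0.36) and Hk3 (0.40), and 0 genes of the list were higher within those bins, where Prtn3 gave -0.10.

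The remaining lists had members moving in both directions or few calls. Of 20 monocyte genes, 6 were higher, among them Prdx4 (log2 1.40) and Psap (0.41), and 4 lower, among them Cst3 (-0.34). Of 8 dendritic cell genes, Cd74, Flt3 and Runx2 (0.60) were higher and Id2 (-1.86) lower. The Cd74 rise of 2.65 was carried by the male library (6.62 to 63.6 CPM, against 4.95 to 7.47 CPM in the female), where 1 top-class cell held at least 50% of the UMIs. For Id2, 3 female and 4 male bottom-class cells held at least 50% of the UMIs, and within bins of RNA depth Id2 differed by -0.31 with no call (edgeR adjusted p = 0.54). DESeq2 called Id2 and none of the 3 higher genes. By the residual Cd74 differed by 0.50 with no call (edgeR adjusted p = 0.36). Of 7 lymphoid genes, Ighm (1.41) and Notch1 (0.87) were higher and Nkg7 (-0.78), also a granule gene of these progenitors, lower. Notch1 rested on 19, 55, 16 and 45 UMIs. It was not called with DESeq2, within bins of RNA depth (0.63, edgeR adjusted p = 0.12), by the residual, in thinned cells or without the basophil-rich cells. Of 15 interferon-response genes, Ifi203 (1.28) and Ifi27l2a (0.79) were higher and 0 were lower. Of 19 secondary granule genes, Lyz2 (0.40) was higher and Ltb4r1, Anxa1, Pglyrp1 and Lcn2 lower, with a median of -0.037. In splits matched on the other antibodies more of them were lower, 9 of 19 within bins of those antibodies (median -0.18) and 9 of 19 by the residual (-0.22), against 3 of 19 within bins of RNA depth (0.063). Of 13 genes of the mitochondrial genome, mt-Nd1 (-0.085) and mt-Nd4 (-0.11) were lower, and their summed share stood at 2.24% to 2.40% over the 8 classes of both libraries. Of 18 immediate early and stress genes 8 were lower and 2 higher, Fos (-0.33) and Jun (-0.26) among the lower ones. This list turned at matched depth, with 10 higher and 2 lower both within bins of RNA depth (median 0.22, against -0.19 by count) and by the residual (0.21). Fos was then at 0.11 and Jun at 0.19 within the bins. The largest rises outside the lists included Mef2c, a transcription factor of lymphoid-primed and myeloid progenitors (44.5, 106, 37.9 and 98.4 CPM, 1.31, SE 0.11), and Serpina3g, a protease inhibitor (40.8, 92.0, 37.9 and 81.9 CPM, 1.14, SE 0.12).

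Genes of G2 and mitosis were higher in the CD117-high cells by count, but not at matched RNA depth. Of 25 tested, 23 were higher and 0 lower, and the median log2 fold change was 0.66. Ube2c, which loads ubiquitin for the anaphase-promoting complex, was at 132, 136, 187 and 248 CPM over the female and 114, 176, 231 and 244 CPM over the male classes (0.91, SE 0.072, edgeR adjusted p = 1.14e-34). Cenpf, a kinetochore protein, was at 28.5, 67.8, 31.2 and 72.7 CPM (1.23, SE 0.13), Top2a, topoisomerase II, at 141, 203, 147 and 209 CPM (0.51, SE 0.072), and Mki67, the proliferation marker, at 59.0, 73.3, 47.1 and 74.7 CPM (0.49, SE 0.11). In these 4 genes both top classes were above both bottom ones.

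Within 10 bins of RNA depth the median over the G2/M genes was 0.046, 1 gene was higher and 1 lower, and Ube2c differed by 0.0075 (edgeR adjusted p = 0.98). The CD117 medians of these matched classes were 645.5 against 178 and 384.5 against 98, nearly as far apart as in the unmatched ones, at RNA depths of 17073.5 against 17155.5 and 13754 against 13804 UMIs. By the residual 2 genes were higher and 3 lower (median -0.020). Within bins of the other 3 antibodies, where depth was not matched, 21 genes were higher (median 0.54), and in thinned cells 16 were (median 0.64). Over all genes the first of these splits called 15.5%, with 9.46% lower, and the other 12.4%, with 7.93% lower. Thinning equalises the UMIs of each cell and keeps the cells of each class. The median over 25 S phase genes was 0.10, and Mcm3 (0.26) and Rrm1 (0.41) were among the 3 that were higher. DESeq2 called 0 of them, and within bins of RNA depth 1 was higher and 2 lower. Of 11 cyclin D genes, their kinases and inhibitors tested, Cdk4 (0.22) and Ccnd2 (0.23) were higher, and Ccnd3 (-0.30) and Btg1 (-0.35) lower. All 4 calls ended with DESeq2 and without the basophil-rich cells, where the list had 0 calls.

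**Figure D4:**
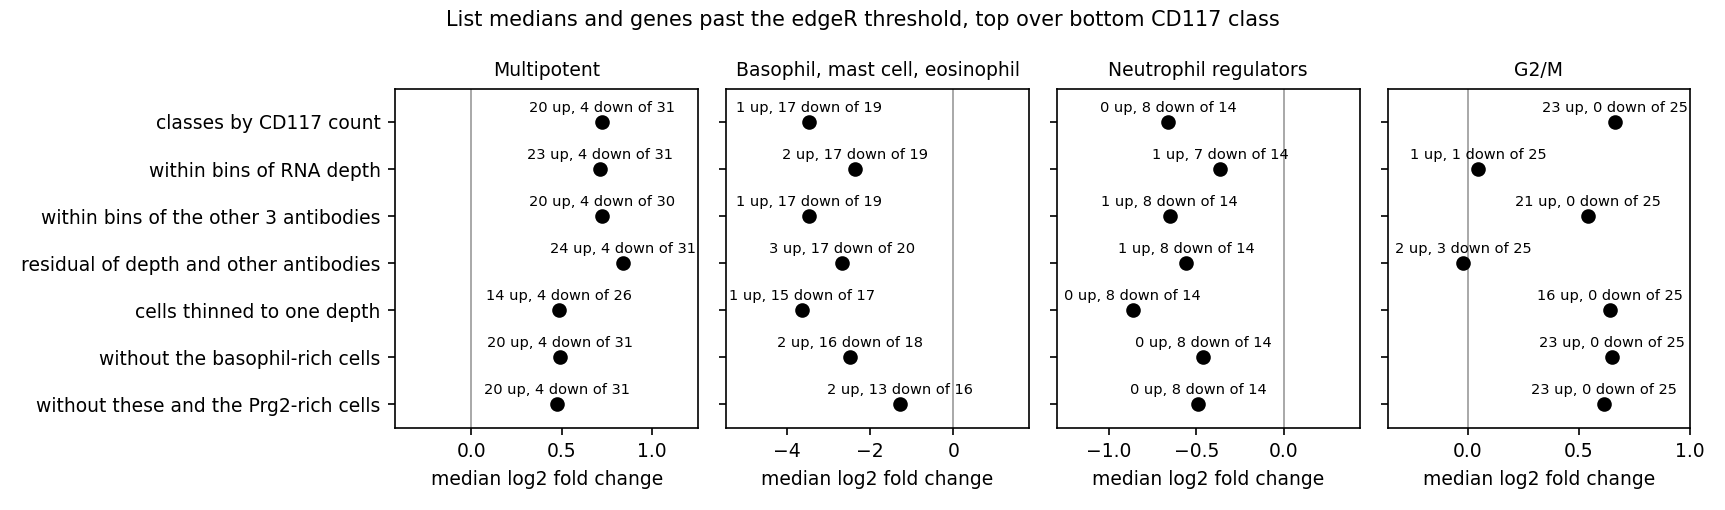
Median log2 fold change (top over bottom CD117 class) of 4 gene lists under 7 ways of forming the classes, with the number of genes past the edgeR threshold in each direction beside each point. The multipotent, basophil and neutrophil-regulator medians stay on 1 side of 0 throughout, and the G2/M median is near 0 when classes are matched on RNA depth or set by the residual.

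The same split was made in 2 neighbouring clusters. HSCP-2 (546 cells) is the earlier and Gran-1 (2373 cells) the granulocytic neighbour, and classes were set within each cluster and library. The test was of the difference between the splits (the interaction in edgeR, 8 sums, 2 residual degrees of freedom). Both tests share the Multi-Lin sums. Against HSCP-2, 260 of 9171 genes differed (2.84%), and against Gran-1, 846 of 10295 (8.22%). In HSCP-2 the median CD117 of the top class was 3.86 and 3.64 times that of the bottom, and RNA depth 1.30 and 1.55 times, much as in Multi-Lin cells. In Gran-1 the ratios were 2.72 and 2.91 for CD117 and 1.39 and 1.33 for depth.

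The rise of multipotent genes with CD117 was not seen in HSCP-2 and was partly seen in Gran-1. In HSCP-2, 2 of 31 were higher and 8 lower in the CD117-high cells, in a split that called 5.33% of all genes (2.62% higher and 2.72% lower), and the median was -0.33. In the test of the difference, 14 of 31 were higher in the Multi-Lin split (1.24% of all genes) and 2 lower (1.59%). Cd34 in HSCP-2 was at 344, 325, 395 and 312 CPM and Lmo2 at 703, 603, 723 and 584 CPM, both lower in each top class, and their splits differed from those in Multi-Lin cells by 0.94 (edgeR adjusted p = 3.92e-06) and 1.37 (4.64e-11) on the log2 scale. With classes by the residual, where 2.41% of all genes differed (1.36% higher and 1.05% lower), 13 of 31 were higher in the Multi-Lin split and 2 lower. The HSCP-2 median was then -0.074. In Gran-1, 8 of 28 were higher (3.55% of all genes) and 1 lower (4.63%), with a median of 0.32, and by the test of the difference 8 of 31 were higher and 5 lower in the Multi-Lin split (2.97% and 5.25% of all genes). By the residual 5 of 32 were higher and 5 lower in the Multi-Lin split (2.3% and 5.06% of all genes). The medians were then 0.81 in Multi-Lin cells and 0.55 in Gran-1. Kit itself showed no difference between the splits that passed, with 82.0, 99.95, 98.7 and 87.9 CPM in HSCP-2 (interaction 0.48, SE 0.23, edgeR adjusted p = 0.38) and 36.4, 42.3, 35.2 and 37.6 CPM in Gran-1 (0.38, SE 0.16, edgeR adjusted p = 0.14).

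The G2/M genes rose further in HSCP-2, with 21 of 24 higher and a median of 1.83, and 15 of 25 were lower in the Multi-Lin split by the test of the difference. By the residual, 2 of 25 were. In Gran-1, 24 of 25 were higher (in a split that called 8.18% of all genes) with a median of 0.85, and 7 were lower in the Multi-Lin split. By the residual the number against Gran-1 was larger, at 16 of 25 (7.36% of all genes differed, 2.3% higher and 5.06% lower), with a median of 0.40 in Gran-1 and -0.033 in Multi-Lin cells. S phase genes fell with CD117 in Gran-1, 17 of 25 lower, and 15 of 25 were higher in the Multi-Lin split than there (11 of 25 by the residual).

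The basophil and mast cell genes fell with CD117 in both neighbours too, and further in Multi-Lin cells. In HSCP-2, 7 of 10 tested were lower (median -1.38), and by the test of the difference 8 of 19 were lower and 2 higher in the Multi-Lin split (4 and 3 of 18 by the residual). In Gran-1, 7 of 13 were lower (median -0.33), and 13 of 21 were lower and 1 higher in the Multi-Lin split. Mcpt8 in Gran-1 was at 92.8, 65.4, 92.1 and 77.8 CPM, and its split differed from that in Multi-Lin cells by -3.97 on the log2 scale. The regulators of granulocyte fate differed likewise from Gran-1, with 8 of 15 lower, and against HSCP-2 1 of 14 was. Cebpe in Gran-1 was at 304, 235, 307 and 258 CPM, a fall of 0.31, against 1.24 in Multi-Lin cells on the log2 scale (interaction -0.94, SE 0.088, edgeR adjusted p = 3.67e-24). Gata2 was low in Gran-1, at 4.86 to 9.34 CPM. In HSCP-2, Gata2 was at 232, 191, 192 and 147 CPM, a smaller fall than in Multi-Lin cells (interaction -1.45, SE 0.16, edgeR adjusted p = 2.41e-07). Lmo4 fell in HSCP-2 as well, from 642 to 107 and from 521 to 135 CPM, with no difference between the splits that passed (interaction -0.15, SE 0.18, edgeR adjusted p = 0.82). In Gran-1 it was at 60.6 to 66.1 CPM in all 4 sums.

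**Figure D5:**
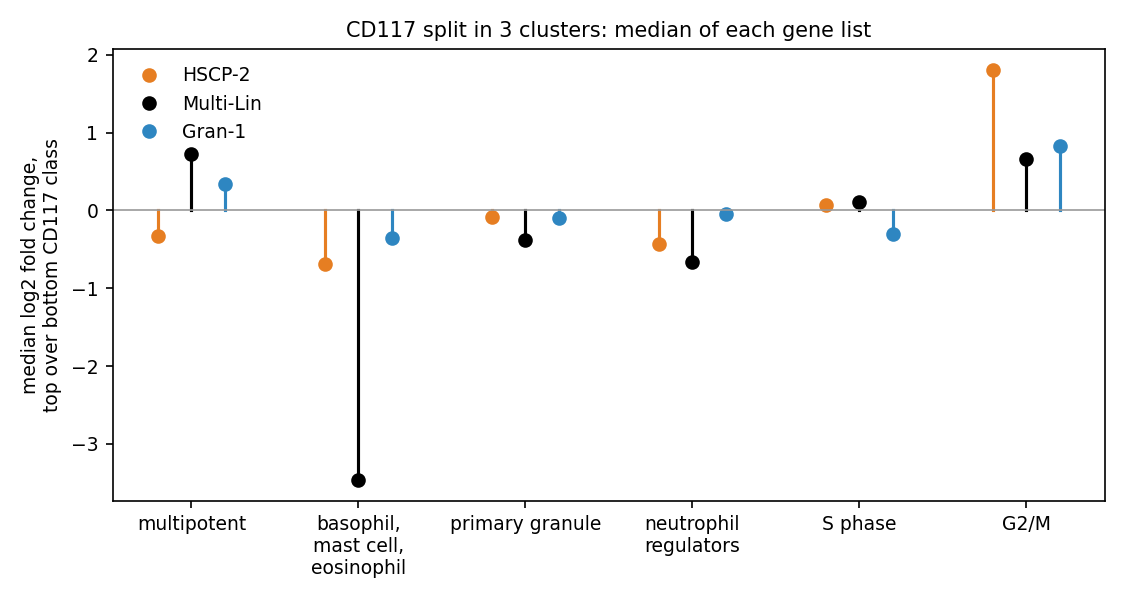
Median log2 fold change of the top over the bottom CD117 class for 6 gene lists in HSCP-2, Multi-Lin and Gran-1 cells, with the medians of HSCP-2 and Gran-1 over the genes tested jointly with Multi-Lin cells (at least as many as in their own splits). The multipotent median is above 0 in Multi-Lin (0.72) and Gran-1 (0.34) and below 0 in HSCP-2, the basophil median is lowest in Multi-Lin, and the G2/M median is highest in HSCP-2.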

How the data were processed

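The members and gene lists were chosen with earlier results of these data known. The authors deposited whole-number UMI counts for 28692 gene IDs, a cluster name per cell, and whole-number antibody counts, for which removal of duplicate reads is not stated. They also deposited natural log values of the antibodies, which equal the log share of each antibody within its cell. Per the submitters' processing notes, Cell Ranger 2.1.0 and mm10 were used. The annotation of genes, the clustering and any removal of doublets were not given in the sources used here.

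A cell's name ends in a suffix that gave its library. Ties in CD117 were ordered by cell name. UMIs were summed per library and CD117 class (25% of a library's Multi-Lin cells) and tested in R 4.3.3 by the quasi-likelihood method of edgeR 4.0.16 (TMM, filterByExpr, Benjamini-Hochberg over all genes tested, threshold 0.05). The library was a covariate (a block), because the top and bottom class of a library share it. Each standard error was obtained by dividing the log2 fold change by the root of its F statistic. Multi-Lin cells held 12245049 female and 15494427 male UMIs. On simulated counts the Multi-Lin fit recovered 29.9% of log2 changes of 0.5, 82.1% of 1 and 100% of 2, with 8 false calls among 9219 unchanged genes. For the difference from HSCP-2 the shares were 2.99%, 19.4% and 56.1%, and from Gran-1 25.4%, 61.2% and 90.9%. Every simulated gene had the same dispersion of 0.001, near the fitted common value of 0.000937, and no library effect. False calls among genes with a larger spread, such as those carried by few cells, were therefore not tested.

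Alternatives were DESeq2 1.42.0, other scaling, no filter, no block, thinning to 5000 UMIs (13 bottom and 1 top cell left out), classes within 10 bins of RNA depth or of the other 3 antibodies, classes by the residual of log CD117 on both, by log share, groups of other sizes, a trend over 4 classes, and leaving out shared barcodes, the basophil-rich 10% of cells or a library. Leaving out cells with 10 or more Prg2 UMIs was added after seeing the data. With 2 libraries an exact permutation test of a single value cannot go below 0.5, so none was run. Named genes were Kit and 18 fixed genes, up to 4 called members of each of 22 lists by mean CPM, and the 10 largest changes each way with one sign in both libraries and a mean of at least 50 CPM. Of the 93 genes so named the text gives a part. Genes outside this rule, such as Hlf, Mecom, Ly6a, Epx, Hdc, Csf3r and Car1, were chosen after their values were seen. Some genes that passed are not reported here.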

Additional observations from a re-analysis of the deposited data

Results flagged for a closer look

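The results here are differences between the CD117 split of Multi-Lin cells and the same split in another cluster, by a test of the difference itself in edgeR. Values are differences of log2 fold changes, Multi-Lin minus the other cluster, and were chosen as the 5 smallest p each way. Against HSCP-2, where 260 genes passed, the larger rises in Multi-Lin cells were H2afy by 1.03, Lmo2 by 1.37, Ifitm3 by 1.14, Wfdc17 by 4.11 and Ctla2a by 1.09. H2afy, a histone variant gene, was at 1226, 2156, 1228 and 2129 CPM in Multi-Lin sums (female bottom, female top, male bottom, male top) and at 1316, 1114, 1611 and 1396 CPM in HSCP-2, higher with CD117 in 1 cluster and lower in the other. Wfdc17 fell in HSCP-2 from 246 to 22.1 and from 150 to 29.7 CPM. The lower values were Apoe at -1.85, Srgn at -0.92, Cks2 at -1.10, Hmgb2 at -0.70 and Myl12b at -1.23. Apoe, the apolipoprotein E gene, fell with CD117 in Multi-Lin cells and rose in HSCP-2, from 424 to 685 and from 391 to 639 CPM. Cks2 and Hmgb2 are cell cycle genes, and RNA depth moved with CD117 in both clusters.

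Against Gran-1, where 846 genes passed, the differences were 0.71 for H2afy, 1.07 for Lmo2, 0.38 for Prtn3, 0.74 for Cdca7 and 1.06 for Ung. Ung, a uracil glycosylase active around S phase, fell with CD117 in Gran-1 from 70.2 to 34.9 and from 74.0 to 39.8 CPM, and was at 61.2, 57.4, 59.4 and 72.0 CPM in Multi-Lin cells. In the other direction Mcpt8 differed by -3.97, Prss34 by -3.93, Lmo4 by -2.40, Cd63 by -1.81 and Lgals1 by -1.12. Cd63, a tetraspanin of granule membranes, was at 1179, 241, 1423 and 383 CPM in Multi-Lin cells and at 942, 760, 994 and 871 CPM in Gran-1.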

How the results depend on the processing

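The 1556 calls fell to 263 with DESeq2, 707 without the replicate block (the library term), 891 in thinned cells, 735 with residual classes thinned, 886 for a trend over 4 classes, 835 without the basophil-rich cells, 646 without these and the Prg2-rich cells, and 798 without both with residual classes. The last 2 were chosen after seeing the data. The cause of these drops was not tested, beyond fewer genes, cells or degrees of freedom where the construction gives them. Higher multipotent genes fell from 20 to 8 with DESeq2, lower primary granule genes from 11 to 7 with DESeq2, and higher megakaryocyte genes from 9 to 2 with DESeq2, 3 thinned, 5 by log share and 4 with residual classes thinned. Higher G2/M genes fell from 23 to 8 with DESeq2, 1 within depth bins, 2 by the residual, 13 by log share, 0 by the residual thinned and 2 by the residual without both cell groups. Counts of lower basophil genes and neutrophil regulators stayed within 1.5 times under every alternative run. Kit lost its call with DESeq2 (0.53) and thinning (0.47), and was 0.45 to 0.61 in either library alone. The differences from HSCP-2 and Gran-1 fell from 260 to 100 and from 846 to 290 genes when thinned.

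Some log2 fold changes of single genes turned sign. By the residual these were Dok2 0.17, Fos 0.072, Gfi1 -0.020, Hmgb2 -0.13, Jun 0.19, Ly6g -0.15, Mki67 -0.096, Prtn3 -0.082, Top2a -0.020 and Ube2c -0.066. With thinning as well they were Dok2 0.52, Gfi1 -0.11, Gp9 0.16, Hmgb2 -0.18, Jun 0.13, Mki67 -0.082, Top2a -0.051 and Ube2c -0.044. Within depth bins they were Btg1 0.018, Fos 0.11, Gfi1 -0.078, Hmgb2 -0.077, Jun 0.19 and Prtn3 -0.10. Without the basophil-rich cells they were Cks2 0.059 and Gfi1 -0.15. Without the Prg2-rich cells too they were Ccnd2 -0.014, Cks2 0.0995, Csf1r -0.0022, Gfi1 -0.18, Prg2 0.22 (whose UMIs picked the cells left out) and Prtn3 -0.012. With residual classes of the remaining cells they were Btg1 0.051, Dok2 0.080, Fos 0.16, Gfi1 -0.26, Hmgb2 -0.020, Jun 0.23, Ly6g -0.14, Prtn3 -0.18 and Top2a -0.024. By log share they were Cd74 -0.12 and Ly6g -0.82, and with the top against the bottom 50% of cells Gfi1 -0.052, Ly6g -0.044 and Prtn3 -0.0078. Thinned they were Gfi1 -0.14 and Ly6c2 0.079, within bins of the other antibodies Ly6g -0.020, without a filter Ly6c2 0.0032 and without shared barcodes Ly6c2 0.0011. In the single libraries Ifi27l2a ranged from -0.013 to 1.33. In all, 52 of 1939 alternatives for 103 named genes turned sign. Shares and CPM intervals cover counting error only, and 2 libraries give no estimate of the spread between mice.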
